A study of Mus musculus with 4 samples.

Results

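The T-box genes of the posterior epiblast were compared between E7.5 and E8.5 wild type mouse embryos, the days before and after trunk formation starts. They were picked by name: 10 T-box genes were listed, and 9 of them (Tbx6, Eomes, Tbx1, Tbx2, Tbx3, Tbx4, Tbx5, Tbx18 and Tbx20) matched a row in a table of 53397 genes, while 1 is not analysed here. Each stage had 2 libraries from separate biological replicates, made with SMART-Seq2 from the RNA of pooled, dissected and unsorted tissue. All 4 libraries were from untreated embryos without any engineered allele, and strain and pool size are not given in the sources used here. In such bulk tissue, fewer cells of a type and less RNA per cell cannot be told apart.

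T-box transcription factors share a DNA-binding domain, the T-box, and many of them recognise the same short sequence, so that members present in a cell can compete for sites. During gastrulation Eomes is needed for mesoderm to leave the primitive streak and for definitive endoderm, and Tbx6 directs progenitors to paraxial mesoderm in place of neural tissue. The other members are best known from later organs: Tbx1 from the pharynx and outflow tract, Tbx2, Tbx3, Tbx5 and Tbx20 from the heart, Tbx4 from the allantois and hindlimb, and Tbx18 from somites and epicardium.

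The libraries held between 18488218 and 19493342 reads in genes, and the 9 T-box genes together took 2960 and 3127 reads at E7.5, against 2365 and 2667 at E8.5. Levels are normalized counts, reads divided by a library size factor, on a scale where 1 read is worth 0.0507 to 0.0562. The most abundant entry of the table, CT010467, accounted for 25.6% of E7.5 replicate 1, against 18.5% to 18.9% of the remaining libraries. Markers of other tissues were detected in the dissections, and many of them moved between stages. Their levels were summed for each library, replicate 1 first. Genes that rose or fell here are calls of the test described below, which called 25.6% of all genes tested higher and 26.4% lower. The summed level of 9 visceral endoderm markers lay between 2219 and 2269 at E7.5 and between 293 and 302 at E8.5, and all 9 fell, Apob, Cubn and Apoa1 being the most abundant. All 6 endothelial markers rose, led by Kdr, Plvap and Cdh5, with sums of 41.8 and 39.5 at E7.5 against 183 and 168 at E8.5. The sum of 6 primitive erythroid markers, mostly Hbb-bh1, Hba-x and Hbb-y, went from 1.80 and 0.710 to 397 and 403, and 5 of the 5 tested rose. All 5 epiblast markers fell, Pou5f1, Nanog and Tdgf1 being the most abundant, from sums of 214 and 210 to 3.62 and 2.77. The part of these tissues in the T-box values below was not tested.

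T-box genes took different courses between the stages. Tbx6, Tbx20, Tbx1 and Eomes fell, Tbx4 rose, Tbx3 did not pass the test, and Tbx2, Tbx5 and Tbx18 were too low to be tested. A gene entered the test when its normalized count was at least 1 in at least 2 libraries, which 6 of the 9 members did. Tbx6, Tbx3, Tbx4 and Tbx20 reached that level in all 4 libraries, Eomes and Tbx1 in the E7.5 libraries alone. Changes are differences in log2(value + 1), E8.5 minus E7.5, a scale that shrinks those of low genes, and adjusted p-values are from limma with the Benjamini-Hochberg method over the 13903 genes tested. At an adjusted p under 0.05, 52.0% of these genes were called, 25.6% higher and 26.4% lower, so that a call alone, which needs no minimum fold, was common, and 10.8% were called and changed by 1 or more in log2. With 2 libraries per stage an exact permutation test of 1 gene cannot go below p = 0.333, and the calls rest on the spread limma shares between genes.

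**Figure D1:**
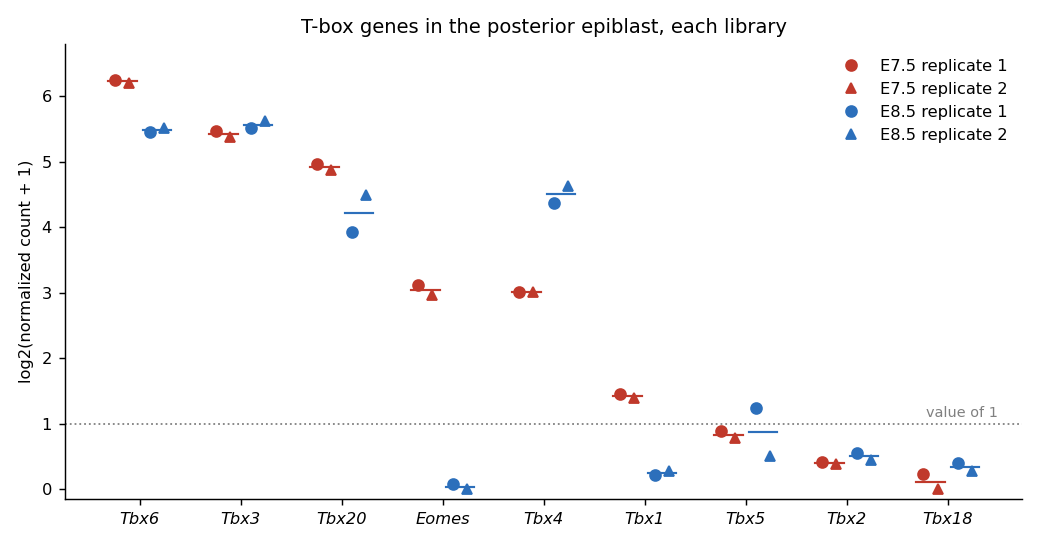
Level of each T-box gene in each library, as log2(normalized count + 1) on the vertical axis, with E7.5 in red, E8.5 in blue, circles for replicate 1, triangles for replicate 2 and short lines at the stage means. Tbx6 and Tbx3 are highest at both stages, Tbx4 is higher at E8.5, and Eomes and Tbx1 lie near 0 at E8.5.

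Tbx6, the paraxial mesoderm determinant on chromosome 7 (126781483 to 126785560), was the most abundant member per kilobase of transcript at both stages. Its normalized count was 75 and 72.9 in the E7.5 libraries and 43.0 and 44.6 in the E8.5 libraries, from 1335, 1438, 819 and 855 reads. The stages were far apart and the replicates close. The E7.5 mean was 74.0 ± 1.49 and the E8.5 mean 43.8 ± 1.18 (SD, n = 2 each), a change of -0.74 in log2 (limma adjusted p = 7.7e-07, standard error 0.07). The ratio of reads per library size was 0.593, with a 95% counting interval of 0.557 to 0.630. Counting intervals cover counting error only.

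Eomes on chromosome 9 (118478212 to 118486132) was nearly lost. It had 136 and 134 reads at E7.5, normalized counts of 7.64 and 6.8, and 1 and 0 reads at E8.5. Its change of -3.0 in log2 (limma adjusted p = 1.8e-09, standard error 0.17) is held down by the pseudocount and was -7.77 in edgeR on the reads. Per library size Eomes was 275 times higher at E7.5, with a wide 95% counting interval of 48.9 to 10903 from the single read at E8.5. An antisense gene, Gm33460, shares 118 exonic bases or 2.84% of the Eomes exons, and had 7 and 2 reads at E7.5 and 0 in both E8.5 libraries. The protocol does not keep the strand, so reads in that stretch cannot be assigned. Eomes is also a gene of trophoblast and visceral endoderm. Of 7 markers of extraembryonic ectoderm and trophoblast, 4 were tested and 3 fell, with summed levels of 91.2 and 79.0 at E7.5, then 18.6 and 17.6 at E8.5, most of it from Rhox5, Tfap2c and Esx1. The defining trophoblast gene Elf5 went from 5 to 33 reads, and the part of either tissue in the Eomes values was not tested.

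Tbx1 on chromosome 16 (18580979 to 18590671), a regulator of pharyngeal mesoderm, was scarce at E7.5 and scarcer at E8.5. It had 31 and 32 reads at E7.5, against 3 and 4 reads at E8.5, normalized counts of 1.74, 1.62, 0.157 and 0.209. The replicates of a stage agreed within counting error, a weak check with so few reads at E8.5. The change in log2 was -1.18 (limma adjusted p = 5.3e-05, standard error 0.18), and the level per library size was 9.17 times higher at E7.5 (95% counting interval 4.2 to 23.7).

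Tbx20 on chromosome 9 (24718138 to 24774303), a factor of cardiac and lateral mesoderm, also fell, and its E8.5 libraries disagreed. Normalized counts were 30.2 and 28.4 at E7.5, then 14.3 and 21.5 at E8.5, from 538, 560, 272 and 412 reads. The stages did not overlap, although E8.5 replicate 2 lay closer to the E7.5 libraries than to replicate 1 on the log2 scale. The change in log2 was -0.71 (limma adjusted p = 7.1e-04, standard error 0.14), but -0.43 when E8.5 replicate 1 was left out and -0.99 when replicate 2 was. With no filter on low values the adjusted p from limma was 0.080, so that the call was lost. Of 6 cardiomyocyte markers 4 were tested, and 3 of them fell, with summed levels of 27.5 and 24.3 at E7.5 against 8.5 and 8.82 at E8.5, led by Actc1, Tnni1 and Myl7. The cardiac factor Nkx2-5 went from 6 reads to 1, and the part of heart tissue in the Tbx20 values was not tested.

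Tbx4, the allantois and hindlimb gene on chromosome 11 (85886422 to 85916097), was the only member called higher at E8.5. Its normalized counts were 7.08 and 7.10 at E7.5, then 19.7 and 23.8 at E8.5, from 126, 140, 375 and 456 reads. Both E8.5 libraries stood well above both E7.5 libraries. The mean went from 7.09 ± 0.0130 to 21.7 ± 2.92 (SD, n = 2 each), a change of 1.49 in log2 (limma adjusted p = 2.1e-07, standard error 0.13) and a ratio of reads per library size of 3.07 (95% counting interval 2.67 to 3.53). Of 6 markers of allantois and extraembryonic mesoderm 5 were tested, 3 rose and 1 fell, and their sum went from 85.5 and 84.7 to 110 and 106, with Bmp4, Ahnak and Tdo2 the most abundant. Bmp4 rose by 0.43 in log2 and Ahnak by 0.34, while Tdo2 was the gene that fell, by 1.29. Vcam1, which marks the allantois, went from 11 to 21 reads, and the 95% counting interval of its ratio, 0.864 to 4.30, includes 1. The part of allantoic tissue in the Tbx4 values was not tested.

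Tbx3 on chromosome 5 (119670669 to 119684724), a repressor of the family, was abundant at both stages and did not pass the test. Its normalized counts were 43.3 and 40.7 at E7.5, then 44.8 and 48.1 at E8.5, from 770, 803, 854 and 921 reads. Both E8.5 values were above both E7.5 values by less than the shared spread of the fit allows to call. The log2 fold change was 0.14, with a 95% interval of -0.03 to 0.31 (adjusted p = 0.156 from limma). The ratio of reads per library size was 1.11, and its 95% counting interval of 1.03 to 1.19, which covers counting error only, left out 1. Its antisense gene Tbx3os1 had between 5 and 9 reads per library and shares 1.74% of the Tbx3 exons.

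Tbx2, Tbx5 and Tbx18 were near the limit of detection. Tbx5, the forelimb and heart gene on chromosome 5 (119832668 to 119885219), had 15 and 14 reads at E7.5, against 26 and 8 reads at E8.5. Its stages overlapped, and the E8.5 libraries bracketed those of E7.5. Tbx2, a repressor of chamber myocardium on chromosome 11 (85832551 to 85841948), had 6, 6, 9 and 7 reads in the same order of libraries. Tbx18, a gene of the anterior somite on chromosome 9 (87702800 to 87731260), had 3, 0, 6 and 4 reads. The gene D030062O11Rik overlaps 20.6% of the Tbx18 exons and had 0 reads in all libraries. The ratio of E8.5 to E7.5 reads per library size was 1.15 for Tbx5 (95% counting interval 0.681 to 1.96), 1.31 for Tbx2 (0.581 to 3.03) and 3.27 for Tbx18 (0.843 to 18.5), and a difference between stages was not detectable at this depth for Tbx2 and Tbx18. For Tbx5 the E8.5 libraries differed from each other beyond counting error, so that its pooled interval understates the spread. Of 7 somite markers 4 were tested, 1 rose and 2 fell, and their sum was 62.0 and 61.7 at E7.5, then 55.8 and 52.9 at E8.5, led by Meox1, Foxc2 and Pax3, whereas the sclerotome genes Pax1 and Nkx3-2 had 0 reads in all 4 libraries.

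**Figure D2:**
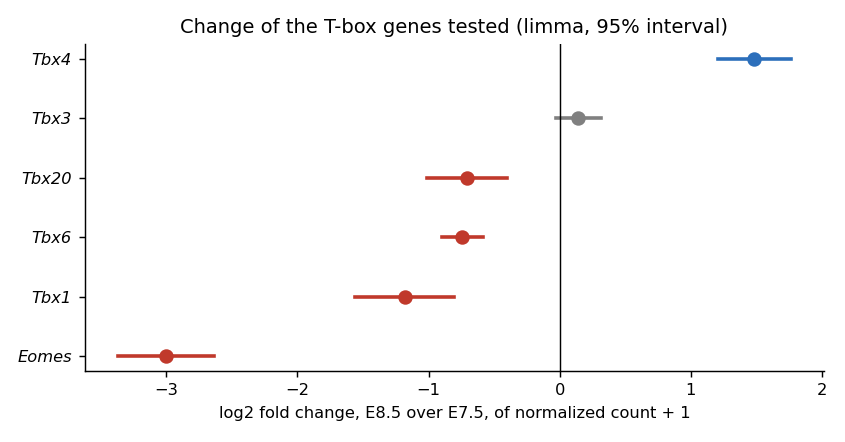
Log2 fold change of the 6 T-box genes tested, E8.5 over E7.5 on the log2(normalized count + 1) scale (horizontal axis), with the 95% interval of the limma fit as bars. Red marks genes called lower, blue the gene called higher and grey Tbx3, whose interval from -0.03 to 0.31 includes 0.

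To compare members with each other, normalized counts were divided by the length of the longest coding transcript in kilobases (kb). Per kb, Tbx6 stood at 42.8 ± 0.861 at E7.5, followed by Tbx3 at 8.43 ± 0.362, Tbx20 at 3.23 ± 0.143, Tbx4 at 2.25 ± 0.00414, Eomes at 2.03 ± 0.168 and Tbx1 at 0.670 ± 0.0336 (SD, n = 2 each). No pair of neighbours in this order overlapped in range at E7.5. At E8.5 the order was Tbx6 at 25.4 ± 0.681, Tbx3 at 9.32 ± 0.464, Tbx4 at 6.90 ± 0.926 and Tbx20 at 1.97 ± 0.563, with the other 5 members at 0.226 or less per kb. At the later stage the ranges of Tbx5 and Tbx2 overlapped, as did those of Tbx1 and Tbx18. When all annotated exons were taken as the length, Tbx3 and Tbx4 also overlapped at E8.5.

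The makeup of the T-box signal shifted accordingly. Tbx6 made up 71.4% and 72.1% of the level per kb summed over the 9 members at E7.5. At E8.5 its share was 58.8% and 56.5%. Tbx4 went from 3.69% and 3.84% to 14.7% and 16.5%, and Tbx3 from 14.3% and 13.9% to 21.3% and 21.1%. Eomes went from 3.53% and 3.26% to 0.0348% and 0. The ratio of Tbx6 to Tbx3 per kb was 5.0 and 5.17 at E7.5, then 2.77 and 2.68 at E8.5. Tbx20 was 4.27 and 4.0 times as high as Tbx4 in normalized counts at E7.5 and 0.725 and 0.904 times as high at E8.5. These ratios are not corrected for length, and the Tbx20 transcript is the longer, at 9091 against 3153 bases. Per kb the means of Tbx20 and Tbx4 were 3.23 and 2.25 at E7.5, then 1.97 and 6.90 at E8.5. The order of these mesodermal genes turned over on both scales. These shares are relative and leave out the listed gene that was not analysed.

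**Figure D3:**
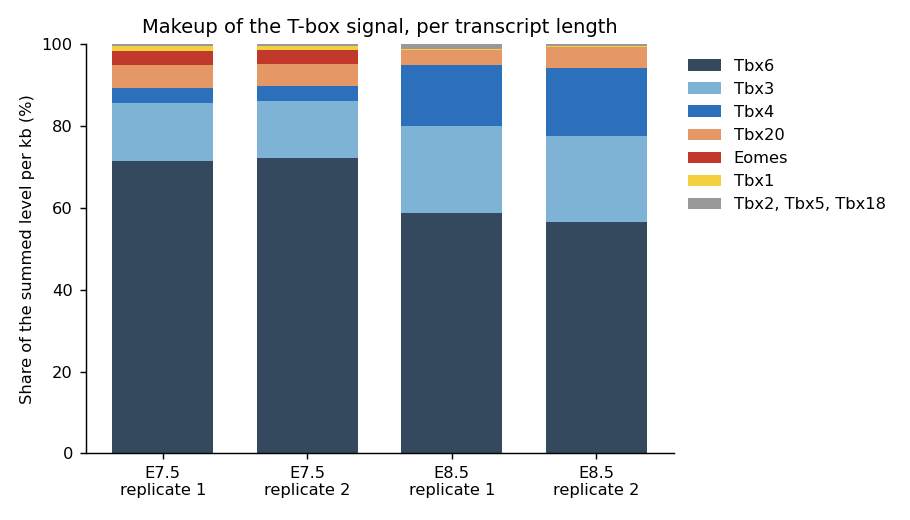
Share of each T-box gene in the level per kb of transcript summed over the 9 members (vertical axis, percent), with a stacked bar for each library. Tbx6 takes 71.4% and 72.1% at E7.5, against 58.8% and 56.5% at E8.5, and the Tbx4 part widens to 14.7% and 16.5%.

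Of the 9 genes, 4 lie in neighbouring pairs in the genome, Tbx2 with Tbx4 on chromosome 11 and Tbx3 with Tbx5 on chromosome 5 (GRCm38). In each pair only a single gene was well expressed. Between Tbx2 and Tbx4, 44473 bases apart and on the same strand, the level per kb of Tbx4 was 24.2 and 26.8 times that of Tbx2 at E7.5, against 47.9 and 74.9 times at E8.5. Tbx3 and Tbx5 are separated by 147943 bases, and Tbx3 was 40.6 and 45.4 times as high at E7.5, against 26.0 and 91.1 times at E8.5. The denominators of these ratios rest on 6 to 26 reads, with no test of the ratios between stages.

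Promoter sequence was matched in RefSeq (GRCm38.p6) for 6 of the 9 members, with 7 start sites. The 250 bases upstream are shown for the 4 called members with a single start site, with CpG dinucleotides in capitals. They are Tbx6 at chr7:126781233-126781482 on the plus strand, Eomes at chr9:118477939-118478188 on the plus strand, Tbx20 at chr9:24774304-24774553 on the minus strand and Tbx4 at chr11:85896515-85896764 on the plus strand.
Tbx6: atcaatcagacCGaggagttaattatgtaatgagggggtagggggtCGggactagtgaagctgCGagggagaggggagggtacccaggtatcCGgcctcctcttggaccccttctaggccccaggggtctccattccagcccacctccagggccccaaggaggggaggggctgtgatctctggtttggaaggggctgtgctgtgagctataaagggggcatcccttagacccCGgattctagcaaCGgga
Eomes: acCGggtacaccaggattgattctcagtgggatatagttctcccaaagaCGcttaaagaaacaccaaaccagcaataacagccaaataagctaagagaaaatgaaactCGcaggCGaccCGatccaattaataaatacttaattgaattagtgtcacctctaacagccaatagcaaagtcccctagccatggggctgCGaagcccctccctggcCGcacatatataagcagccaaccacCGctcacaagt
Tbx20: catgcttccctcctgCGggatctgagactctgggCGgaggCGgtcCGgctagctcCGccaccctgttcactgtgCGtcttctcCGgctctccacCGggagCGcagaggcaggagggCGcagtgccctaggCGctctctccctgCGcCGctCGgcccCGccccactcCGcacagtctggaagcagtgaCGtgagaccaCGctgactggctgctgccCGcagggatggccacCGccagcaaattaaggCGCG
Tbx4: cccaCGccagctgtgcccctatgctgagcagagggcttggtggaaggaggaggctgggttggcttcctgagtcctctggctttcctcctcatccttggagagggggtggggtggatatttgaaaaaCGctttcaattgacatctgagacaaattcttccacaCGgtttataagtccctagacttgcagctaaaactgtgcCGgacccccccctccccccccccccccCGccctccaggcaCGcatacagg
The stretches of Tbx6 and Tbx4 hold 6 CpG dinucleotides each and that of Eomes 8, while that of Tbx20 holds 22. Over the 300 bases from 250 upstream to 50 downstream, the numbers were 7, 8, 10 and 26, against a median of 7 over 32851 promoters. The start shown for Tbx4 lies 10343 bases inside the GENCODE gene, and the deposited values, which are per gene, do not tell its start sites apart. The T-box half-site AGGTGTGA was searched on both strands and was in none of the 7 windows, and in 1.28% of all promoters. Its shorter core GGTGTGA was in none of the 7 either, and in 3.98% of all. The Tcf/Lef motif CTTTGAT, also on both strands, was in none of the 7 and in 3.73% of all. TATAAA, on both strands, was in 2 of the 7, those of Tbx6 and Tbx4, and in 13.6% of all. In Tbx6 the first base of TATAAA lay at position -43 from the start site, whereas in Tbx4 the match was the reverse complement, TTTATA. Only these exact letters were searched, so that the similar TATATAAG in the stretch shown for Eomes was not counted. These matches describe the letters in the windows and nothing about binding.

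Replicates agreed within counting error for all 9 members at E7.5, and for 6 of 9 at E8.5. For members with few reads this says little, since the interval of Eomes at E8.5 reached from 0 to 38.8. Among all genes tested with at least 30 reads at a stage, 27.2% differed beyond counting error at E7.5 and 19.0% at E8.5. Tbx20 was 1.51 times as high in E8.5 replicate 2 as in replicate 1 (95% counting interval 1.29 to 1.76), and Tbx4 1.21 times (1.05 to 1.39). Tbx5 went the other way, at 0.306 times (0.120 to 0.696). Among 3964 genes tested with 342 to 1368 reads at E8.5, a range around the 684 of Tbx20, 18.2% differed between these replicates beyond counting error and 0.151% by more than Tbx20 did. The most abundant members, Tbx6 and Tbx3, were at 1.04 (0.943 to 1.14) and 1.07 (0.977 to 1.18).

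**Figure D4:**
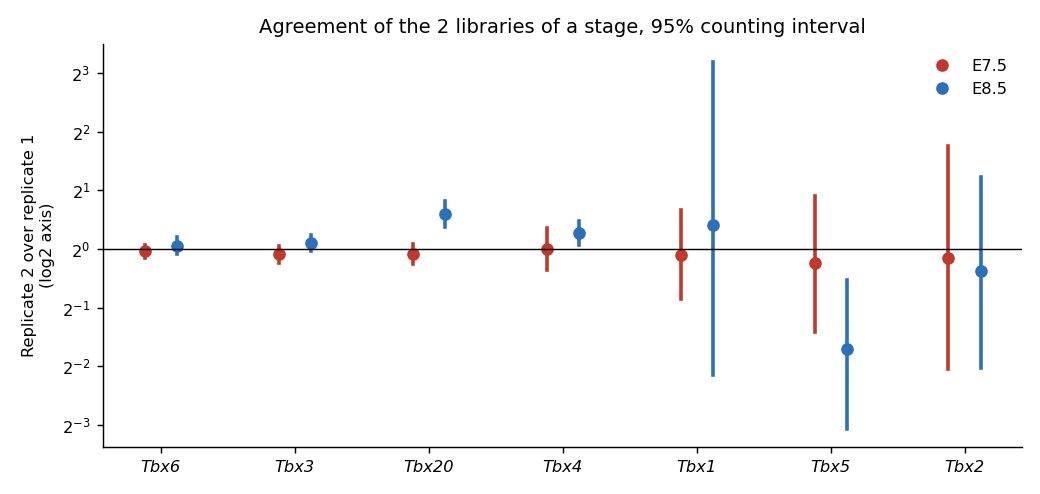
Ratio of replicate 2 to replicate 1 (vertical axis, log2 scale) for 7 T-box genes at E7.5 in red and E8.5 in blue, with 95% counting intervals as bars. At E8.5 the bars of Tbx20 (1.29 to 1.76), Tbx4 (1.05 to 1.39) and Tbx5 (0.120 to 0.696) leave out 1; Eomes and Tbx18, with 0 reads in a library, are not drawn.

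Genes known to act with the streak members were followed as lists, chosen with earlier results of these data known. Over all genes tested, 25.6% were called higher and 26.4% lower. Of 14 genes of the streak, endoderm and early mesoderm linked to Eomes, 13 were tested, 12 fell and 1 rose, with a median log2 fold change of -1.68 against -0.0074 over all genes tested, and also with Tdgf1 at its bound. Lefty2, a Nodal antagonist, and Mesp1, a target of Eomes in cardiac mesoderm, had log2 fold changes of -4.20 (standard error 0.15) and -3.68 (standard error 0.14). The Nodal co-receptor Tdgf1 was at least 218-fold lower, with 0 reads at E8.5 set at 3 over both libraries. Otx2, an anterior epiblast factor, fell by 3.0 on the log2 scale, while Hhex, a gene of endoderm and endothelium, rose by 0.93. The markers of visceral endoderm fell beside this list, and 9 of 9 did so.

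Genes of the streak and presomitic mesoderm were split. Of 22 genes 21 were tested, 8 rose, 9 fell and 4 were not called, beside 25.6% higher and 26.4% lower over all genes tested. The median was -0.064, and 0.028 without E8.5 replicate 2. Msgn1, a mesoderm factor that depends on Tbx6, fell by 1.57 in log2 (standard error 0.08), against -0.74 for Tbx6. It had normalized counts of 75.2 and 76.2 at E7.5, then 25.3 and 24.5 at E8.5. The difference between both genes was not tested. Fgf4, Wnt3a and Aldh1a2, which makes retinoic acid, fell by 1.61, 0.87 and 3.2. In the other direction Cyp26a1, the enzyme that degrades retinoic acid, rose by 2.17 (standard error 0.07), the streak and tail bud signal Fgf8 by 1.32, the segmentation clock repressor Hes7 by 0.93 and the homeobox gene Evx1 by 0.77. The node and notochord markers, 5 in all, gave 2 higher and 2 lower, with sums of 51.7 and 50.3 at E7.5, then 45.9 and 47.1 at E8.5, and Noto, Foxj1 and Shh were the most abundant over the 4 libraries. These sums hide opposite moves: Foxj1 fell by 3.79 in log2 and Shh rose by 1.87, while Noto was not called.

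Heart, lateral plate and limb genes, the setting of the other members, moved in either direction. Of 23 genes 19 were tested, 8 rose, 6 fell and 5 were not called, beside 25.6% higher and 26.4% lower over all genes tested. The median was 0.10, but -0.063 without E7.5 replicate 1 and -0.047 without E8.5 replicate 1. The largest rises in log2(value + 1) were those of Pitx1, which acts upstream of Tbx4 in the hindlimb, by 2.09 (standard error 0.15), and the mesenchymal gene Prrx1 by 1.99 (standard error 0.09). Gja5, a connexin of arteries and heart, came next at 1.73, then Tcf21 at 1.23. In reads per library size Gja5 rose most of these, with a ratio of 10.5 from 12 and 128 reads, against 5.21 for Pitx1. The largest falls were those of Gata4 by 2.49 (standard error 0.11), the muscle protein genes Myl7 by 1.94 and Actc1 by 1.5, and the coelomic gene Wt1 by 0.85. Gata4 is also a gene of visceral endoderm, whose 9 markers fell at a median of -3.09, and the part of that tissue in its values was not tested. The other 6 called genes, chosen after their values were seen, went both ways: Fgf10 rose by 0.95, Foxf1 by 0.78, Hand2 by 0.61 and Bmp4 by 0.43, while Hand1, the most abundant gene of the list, fell by 0.81 and Bmp2 by 0.67. Mef2c, Isl1, Tnnt2, Myl4 and Gata5 were not called. Of 6 surface ectoderm markers, among which Krt18, Grhl3 and Trp63 were the most abundant, 5 were tested, 2 rose and 1 fell. Their sums were 280 and 262 at E7.5, then 206 and 215 at E8.5. Krt18 made up most of these sums and fell by 0.65 in log2, while Trp63 rose by 3.98 and Grhl3 by 0.89.

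**Figure D5:**
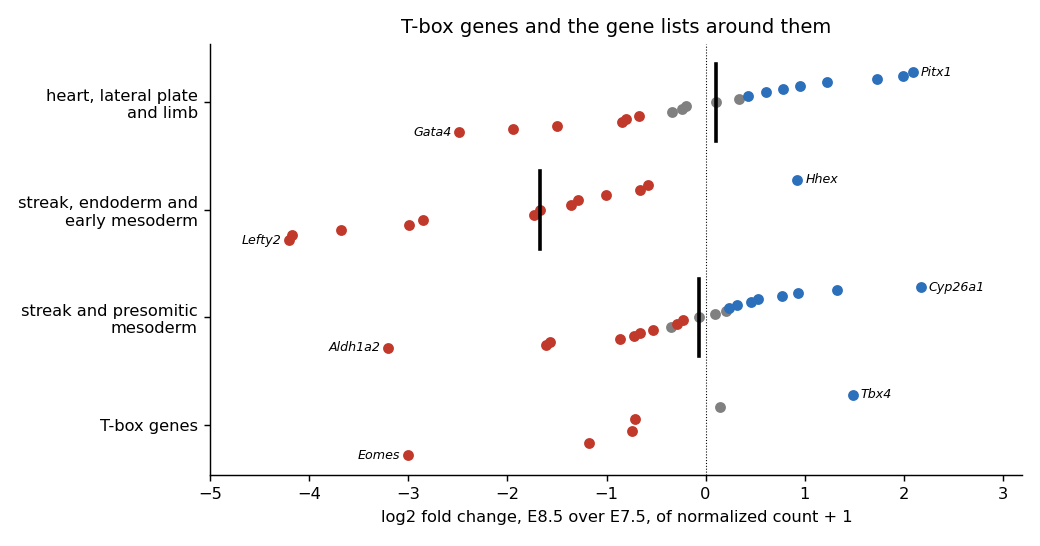
Log2 fold change, E8.5 over E7.5 on the log2(normalized count + 1) scale (horizontal axis), of the T-box genes tested and of the members of 3 gene lists, a dot for each gene, red when called lower, blue when called higher and grey when not called. Black bars mark the list medians of -1.68, -0.064 and 0.10, and the genes at either end of a row are named.

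The other T-box family genes were nearly silent apart from Mga, which encodes a large protein with both a T-box and a domain that binds Max. Mga had normalized counts of 88.9 and 95 at E7.5, then 106 and 111 at E8.5, a change of 0.24 in log2 (limma adjusted p = 0.0074, standard error 0.07). The call was lost without E8.5 replicate 2 (adjusted p = 0.122) and with no filter on low values (0.058). Summed over a stage, Tbx15 went from 12 to 4 reads, and 11 of the 12 were in E7.5 replicate 2. The pairs of sums were for Tbr1 10 and 3, for Tbx10 4 and 0, for Tbx22 2 and 5 and for Tbx21 2 and 1, and Tbx19 had no read in any library.

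Across the 4 libraries, the genes closest to Tbx6 in log2(value + 1), by Euclidean distance and apart from T-box genes, were Glmp, Ak3 and Cstb, at distances of 0.112, 0.124 and 0.136. The closest to Eomes were Psors1c2, Rimbp2 and Otx2, at 0.227, 0.421 and 0.441. Otx2, which is also on the Eomes list, had normalized counts of 9.39 and 7.51 at E7.5, then 0.315 and 0.0522 at E8.5. Closeness over 4 libraries reflects level and stage difference alone.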

How the data were processed

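RNA was read in 4 libraries of mouse posterior epiblast, 2 each at E7.5 and E8.5. Per the labels and methods, the authors prepared them with SMART-Seq2, sequenced single-end reads of 75 bases and aligned these to mm10 with STAR. The deposited signal values hold the number of reads of each gene after the authors scaled it by library; the methods name DESeq2 for this and the processing notes edgeR. The counting program is not given in the sources used here. Values were whole multiples of a single step per library, and 100% gave whole reads within 0.0001 reads, so reads were recovered.

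Stages were compared with limma 3.58.1 (R 4.3.3; lmFit, eBayes with trend) on log2(value + 1) for genes that reached a value of 1 in 2 or more libraries, without a replicate block. edgeR 4.0.16 and DESeq2 1.42.0 on the recovered reads, other pseudocounts (0.1 and 4), filters (none and 5) and scaling, and leaving out each library were alternatives. Counting intervals are exact binomial (95%). Positions and lengths are from GENCODE M21 (GRCm38), which held 53311 of the 53397 identifiers. Members and lists were chosen with earlier results of these data known. Named were all members with a value, other T-box genes, up to 4 called genes per direction of each list, the 3 most abundant markers of each tissue, overlapping genes and the 3 nearest profiles of Tbx6 and Eomes. Marker genes outside this rule, named because they define a tissue, were chosen after their values were seen. So were Gsc, Fgf5 and Nodal, named for how they met the filter. A listed gene without a row is not analysed here.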

Additional observations from a re-analysis of the deposited data

How the results depend on the processing

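The directions of Tbx6, Eomes, Tbx1, Tbx4, Tbx20 and Tbx3 were kept in every alternative that tested them, and so was the side of the threshold, except for Tbx20 with no filter on low values. Tbx6 ranged from -0.77 to -0.71 on the log2 scale, Tbx4 from 1.21 to 1.63, Tbx20 from -0.99 to -0.43, Tbx1 from -3.19 to -0.44 and Eomes from -8.10 to -1.48, the last 2 with the pseudocount and count models. The minimum of 5 left Tbx1 untested. The median of the streak and presomitic mesoderm list changed sign with no filter (0.017) and over the libraries left out ranged from -0.156 to 0.028; that of the heart, lateral plate and limb list was -0.178 with no filter, 0.336 with the minimum of 5 and -0.063 to 0.253 over the libraries left out, and the cause was not tested. Deviations of same-numbered libraries correlated at -0.0025, a single value over all genes tested, and pairing in part of the genes was not tested. With the replicate block 3598 genes were called higher, against 3562 without it. The limma adjusted p of Tbx6 was 1.8e-08 with the block and 7.7e-07 without it, and that of Tbx3 was 0.182 and 0.156. Tbx2 and Tbx18 had at most 9 reads in a library, and the E8.5 replicates of Tbx5 differed beyond counting error.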
